A study of Mus musculus with 5 samples.

Results

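Cspg4 and Nkx2-2 are genes of the oligodendrocyte precursor, and their surroundings were read from 5 peak lists of chromatin immunoprecipitation followed by sequencing (ChIP-seq) in mouse gliomas. All peaks overlapping 2 windows of the mouse build mm9 were taken. The Cspg4 window was chromosome 9 from 56670000 to 56790000 (120 kb), with the gene near 56.71 to 56.75 Mb, and the Nkx2-2 window was chromosome 2 from 146950000 to 147060000 (110 kb), with the gene near 147.00 to 147.01 Mb. These gene intervals are given to 10 kb only, so a peak is placed inside, below or above an interval and not on an exon. The windows held 45 of the 258727 peaks in the 5 lists, 35 around Cspg4 and 10 around Nkx2-2.

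The tumours were gliomas that PDGFB had induced in mice of a mixed C57Bl/6;129Sv;CD-1 background, taken 25 days after virus injection. The alleles of control tumours (ctrl-T) include P53f/f, where f marks a floxed allele, and Olig2cKO tumours carried these same alleles together with Olig2f/f. The sources used here do not say what drove recombination or whether tumours were pooled. Olig2 was precipitated from control tumours, and 2 histone H3 marks, acetylation of lysine 27 (H3K27ac) and trimethylation of lysine 4 (H3K4me3), from both genotypes, with 1 library each. Peak lists hold no expression values, so the precursor character of the tumour cells was not checked from these data, nor was the loss of Olig2, which was analysed here in control tumours alone.

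Cspg4 encodes NG2, a chondroitin sulfate proteoglycan of the cell surface that marks oligodendrocyte precursors and also pericytes. Nkx2-2 encodes a homeodomain transcription factor that acts in ventral neural patterning and in oligodendrocyte differentiation. Olig2 is a basic helix-loop-helix factor of the same lineage, and such factors bind the E-box, CANNTG. Of the histone marks, H3K27ac is found at promoters and enhancers in use, and H3K4me3 above all at promoters.

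The RefSeq sequences before the 2 gene starts are shown for orientation, with every CANNTG in capitals. Each runs 5′ to 3′ in the gene's direction, covers the 250 bases before the start, and comes from build GRCm38.p6: chr9:56864854-56865103 on the plus strand for Cspg4 and chr2:147186403-147186652 on the minus strand for Nkx2-2. These positions are not on mm9 and were not matched to any peak.
Cspg4: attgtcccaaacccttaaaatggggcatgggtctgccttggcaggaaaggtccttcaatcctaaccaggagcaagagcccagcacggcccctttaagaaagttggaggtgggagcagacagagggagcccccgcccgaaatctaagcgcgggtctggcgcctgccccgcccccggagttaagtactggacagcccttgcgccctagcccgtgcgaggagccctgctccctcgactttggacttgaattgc
Nkx2-2: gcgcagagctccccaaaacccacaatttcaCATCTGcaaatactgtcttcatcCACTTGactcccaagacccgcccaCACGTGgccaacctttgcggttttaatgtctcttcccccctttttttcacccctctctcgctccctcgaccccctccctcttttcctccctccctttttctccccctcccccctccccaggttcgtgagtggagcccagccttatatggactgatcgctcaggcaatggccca
The Cspg4 stretch held 0 matches to CANNTG, and the Nkx2-2 stretch held 3, starting at bases 31 (CATCTG), 54 (CACTTG) and 78 (CACGTG) from the 5′ end. Over all 32851 RefSeq promoters of this length, 66.2% held a CANNTG. The form CAGATG or its complement CATCTG, which is also a CANNTG, was in 14.4% of promoters and in the Nkx2-2 stretch. CAGCTG, another form of CANNTG, was in 13.0% and in neither stretch. A match is a description of the letters and not of binding.

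The lists held 39201 Olig2 peaks, 56600 and 69365 H3K27ac peaks (control and Olig2cKO), and 44676 and 48885 H3K4me3 peaks. Read depth is unknown for all 5 libraries. Every peak has a score from the authors' peak caller, which is not scaled between libraries, and is given here with the percent of its own list that scored at or below it. With 1 library per group, a difference between genotypes has no replicate check, and no test was made. Because whole tumours were used, fewer cells with a mark and less of the mark per cell cannot be told apart.

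Over the approximate Cspg4 gene, the Olig2 peaks of control tumours lay on H3K4me3 in the absence of a listed H3K27ac peak. The histone lists of both genotypes showed this state at these sites, while Olig2 itself was not mapped in Olig2cKO tumours. Cspg4 is on the plus strand, so its start lies toward the lower end of the interval. There, a broad H3K4me3 peak ran from 56710901 to 56719785 in control tumours (8885 bp, score 99.98, 18.5% of the list at or below) and from 56711448 to 56719944 in Olig2cKO tumours (8497 bp, score 150.65, 29.4%). Only 0.0112% of control and 0.0348% of Olig2cKO H3K4me3 peaks were wider, so these peaks were among the broadest of their lists while their scores were low. An Olig2 peak from 56714634 to 56716800 (2167 bp, score 134.29, 69.2%) lay wholly inside both.

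The second H3K4me3 peak of the interval ran from 56726616 to 56729519 in control tumours (score 393.85, 53.3%) and from 56726617 to 56730050 in Olig2cKO tumours (score 226.21, 40.0%), with lower edges 1 bp apart. It met the highest Olig2 peak of the window, from 56728049 to 56730755 (2707 bp, score 259.49, 90.9%), which it covered by 54.3% in control and 74.0% in Olig2cKO tumours. At both Olig2 sites the nearest H3K27ac peak was 15654 to 16525 bp away in either genotype. Over all lists, 4.68% of Olig2 peaks had H3K4me3 in both genotypes and H3K27ac in neither. Among H3K4me3 peaks, 25.5% of the control and 28.6% of the Olig2cKO list met no H3K27ac peak of either genotype. Among H3K4me3 peaks of at least 8000 bp, 8 of 28 control (28.6%) and 9 of 55 Olig2cKO peaks (16.4%) did so.

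Acetylation in the Cspg4 interval was listed at its upper end, without Olig2 and without H3K4me3. This H3K27ac peak ran from 56746527 to 56750545 in control tumours (score 242.52, 60.8%) and from 56747281 to 56750612 in Olig2cKO tumours (score 441.49, 81.8%). H3K4me3 covered 29.5% of the 40 kb interval in control and 29.8% in Olig2cKO tumours, and H3K27ac covered 8.68% and 6.80%.

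**Figure D1:**
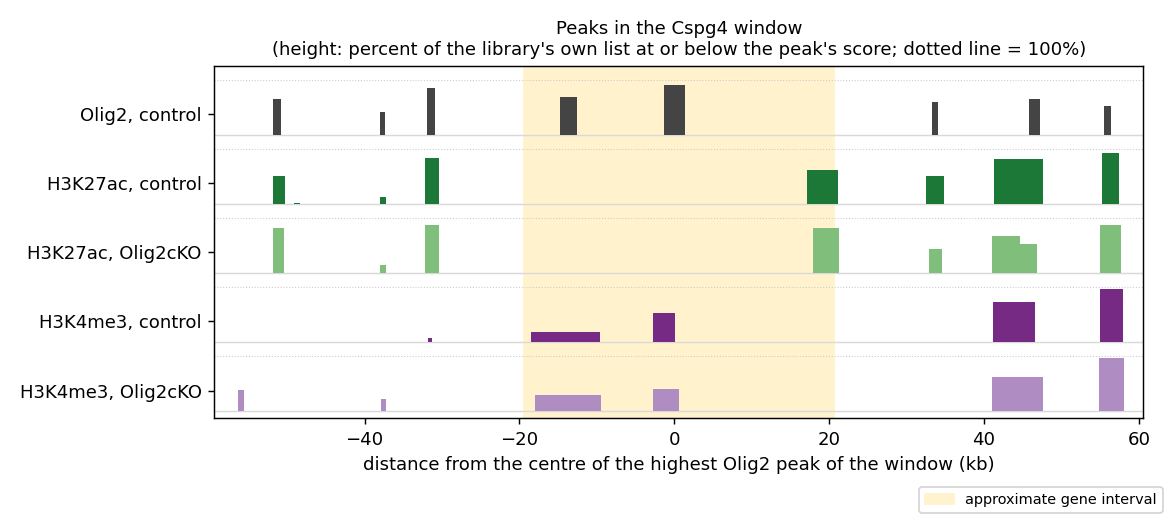
Peaks in the Cspg4 window by library, against the distance in kb from the centre of the highest Olig2 peak; bar height is the percent of that library's own list at or below the peak's score, and shading marks the approximate gene interval. The 2 Olig2 peaks in the shaded interval stand over H3K4me3 peaks in both genotypes and over no H3K27ac peak.

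On both sides of the gene, Olig2 peaks lay on H3K27ac. All 6 Olig2 peaks of the window outside the interval overlapped H3K27ac in both genotypes, which is the usual state of an Olig2 peak (68.9% of the whole list in control and 70.2% in Olig2cKO tumours). Below the gene, an Olig2 peak from 56677611 to 56678623 (score 124.19, 65.5%) lay inside H3K27ac peaks that scored 177.02 in control (50.0%) and 448.35 in Olig2cKO tumours (82.2%), with no H3K4me3 in either. The Olig2 peak from 56697507 to 56698506 (score 206.75, 85.3%) lay inside H3K27ac peaks of 543.22 (83.1%) and 554.74 (87.0%). A weaker Olig2 peak from 56691360 to 56691987 (score 80.54, 40.5%) met narrow H3K27ac peaks of 67.86 (13.2%) and 68.09 (14.0%).

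Above the gene, the Olig2 peak from 56762701 to 56763498 (score 110.72, 59.6%) lay inside H3K27ac peaks of 175.79 in control (49.8%) and 139.13 in Olig2cKO tumours (42.7%), again without H3K4me3. The remaining Olig2 peaks, from 56775214 to 56776608 (score 123.46, 65.3%) and from 56784928 to 56785769 (score 96.66, 52.0%), lay on both marks in both genotypes. At the first of these, 1 control H3K27ac peak of 6260 bp (score 497.09, 81.0%) faced 2 Olig2cKO peaks of 3646 and 2119 bp (scores 270.51 and 180.04, 67.5% and 52.6%). The lower of the 2 ended at 56774021 and the upper began at 56774073, and only the upper met the Olig2 peak. Merging peaks within 1 kb joined them. H3K4me3 there scored 895.1 (72.3%) in control and 543.27 (62.9%) in Olig2cKO tumours. At the second Olig2 peak, from about 34 kb above the interval, stood the highest H3K4me3 peaks of the window, with scores of 2743.82 in control (97.1%) and 2390.51 in Olig2cKO tumours (95.8%). H3K27ac there scored 833.6 (91.9%) and 548.7 (86.8%). In the RefSeq gene order of GRCm38.p6, Odf3l1 precedes Cspg4 and Snx33 and Imp3 follow it, so peaks outside the interval may belong to other genes, and none was assigned to a gene.

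A peak with no overlapping peak of the other genotype is called genotype-only, which says that none was listed and not that the mark was absent. The Cspg4 window held 4 such peaks, all below the gene. For H3K27ac, 1 of the 9 control peaks of both windows was control-only (17.9% over the whole list) and 0 of 9 Olig2cKO peaks were Olig2cKO-only (30.9%). The control-only peak, from 56680259 to 56681016, had a score of 52.42, higher than or equal to only 2.17% of its list. For H3K4me3, 2 of 8 control peaks were control-only (8.13% over the whole list) and 2 of 8 Olig2cKO peaks were Olig2cKO-only (21.4%). With so few members, these shares are counts of single peaks.

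The H3K4me3 peaks found in 1 genotype near Cspg4 were narrow and stood in the lower part of their lists by score. The control-only peak ran from 56697535 to 56698084 (550 bp, score 66.25, 7.82%), inside the Olig2 and H3K27ac site described above. Olig2cKO-only peaks ran from 56691498 to 56692164 (667 bp, score 117.46, 23.0%), at an Olig2 site with H3K27ac, and from 56673029 to 56673792 (764 bp, score 207.76, 37.7%), where no other list had a peak. In the score decile of each, 36.8%, 41.3% and 25.2% of all peaks of that list were genotype-only. Beyond the window, the nearest H3K4me3 peaks began 7.3 kb above it in both genotypes, with scores of 3007.03 in control and 2911.81 in Olig2cKO tumours, and the nearest below ended 24.6 and 25.7 kb away.

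Around Nkx2-2, the highest Olig2 peak overlapped no peak of the 4 histone lists. It ran from 147006072 to 147007324 within the gene interval (1253 bp, score 449.14), and 97.8% of the Olig2 list scored at or below it. The nearest H3K27ac peak was 10808 bp away in control and 11301 bp in Olig2cKO tumours. A control H3K4me3 peak ended 729 bp below the Olig2 peak, while the nearest Olig2cKO H3K4me3 peak was 10878 bp away. Over the whole list 17.1% of Olig2 peaks met no histone peak, and of the 846 Olig2 peaks with at least this score, 24 (2.84%) met none. A second Olig2 peak overlapping no histone peak, from 146970563 to 146971194, had a low score of 61.59 (20.2%).

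That neighbouring H3K4me3 peak was control-only. It ran from 147003279 to 147005342 in the Nkx2-2 interval (2064 bp, score 252.86), with 42.2% of its list at or below, and carried neither Olig2 nor H3K27ac of either genotype. With Nkx2-2 on the minus strand, the start of the gene lies toward the upper end of the interval. The peak was not placed at a promoter. The nearest Olig2cKO H3K4me3 peak was 12.9 kb away. In its score decile, the fifth from the lowest, 2.10% of control H3K4me3 peaks were control-only, against 36.8% in the decile of the control-only peak near Cspg4. Merging the 4 histone lists gave 91242 regions, of which 1.42% held, like this one, a control H3K4me3 peak and no peak of the other 3 lists.

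The other marks of the Nkx2-2 window lay together about 8 kb above the interval. Nkx2-2 is on the minus strand, so this is on the side of its start. In the RefSeq gene order of GRCm38.p6, the noncoding genes Nkx2-2os and 6430503K07Rik follow Nkx2-2 on this side. These peaks may therefore belong to other genes, and none was assigned to a gene. Names such as the Nkx2-2 peak or pair refer to the window. H3K27ac ran from 147018133 to 147019929 in control tumours (1797 bp, score 883.81, 92.9%) and from 147018626 to 147019878 in Olig2cKO tumours (1253 bp, score 188.1, 54.3%), and each was the only H3K27ac peak in the window. H3K4me3 ran from 147018129 to 147019893 in control (score 2206.86, 93.2%) and from 147018203 to 147019919 in Olig2cKO tumours (score 851.47, 73.6%). A small H3K4me3 peak followed, of 370 bp in control (score 371.65, 51.8%) and 537 bp in Olig2cKO tumours (score 235.37, 41.1%). The third Olig2 peak of the window, from 147018457 to 147021253 (2797 bp, score 108.16, 58.4%), overlapped both H3K4me3 peaks and the H3K27ac peak in each genotype. Just above the window, 1.4 kb beyond its limit, each genotype had a weak H3K4me3 peak (scores 167.01 and 81.44).

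**Figure D2:**
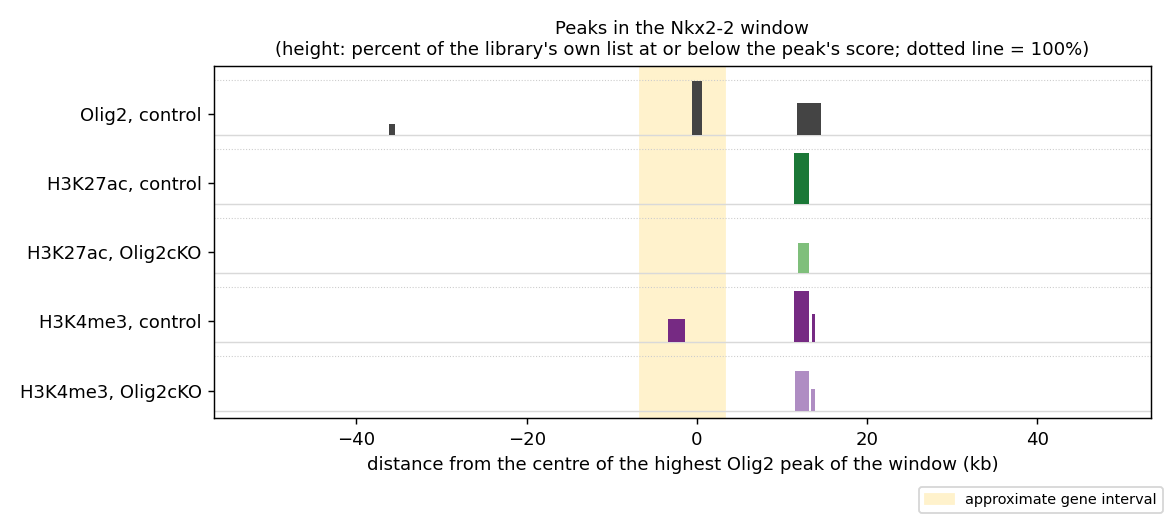
Peaks in the Nkx2-2 window by library, against the distance in kb from the centre of the highest Olig2 peak, with bar height and shading as for Cspg4. The Olig2 peak at 0 stands over no histone peak, an H3K4me3 peak beside it is present in control alone, and the other histone peaks stand between 10 and 15 kb to the right.

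Inside each list, the order of the members by score differed between genotypes for H3K27ac. The Nkx2-2 peak was the first of 9 in the control list, ahead of the peak 34.6 kb above Cspg4 (883.81 and 833.6). In the Olig2cKO list it was 6th of 9, and the first was the peak from 56697163 to 56698964 below Cspg4 (554.74), at a site where Olig2 was listed in control tumours. For H3K4me3, the peak farthest above Cspg4 was the first, the main Nkx2-2 peak the second and the peak from about 20 kb above the Cspg4 interval (895.1 and 543.27) the third of 8 in both genotypes.

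To place scores of separate libraries on a common footing, peaks with exactly 1 partner were ranked among all such pairs, of which there were 43120 for H3K27ac and 35250 for H3K4me3, so both genotypes had lists of equal length. This ranking was chosen after the data were seen, and a rank can move with the noise of a single library. The Nkx2-2 H3K27ac pair stood at 91.4% of pairs at or below in control and at 38.6% in Olig2cKO tumours, a difference of -52.8 points (Olig2cKO minus control). A difference as low or lower was found in 1.45% of all pairs, and in 1.18% of the 4312 pairs in the same decile of control score, where the median difference was -1.8 points. The Nkx2-2 pair was therefore near the low end of all H3K27ac pairs.

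Both H3K4me3 pairs of the Nkx2-2 window also ranked lower in Olig2cKO tumours. The main pair stood at 92.1% in control and 68.7% in Olig2cKO tumours (-23.3 points), and 3.59% of all pairs, or 0.965% of its control decile, were as low. The small pair stood at 48.7% and 28.8% (-19.9 points), with 5.42% of all pairs, or 11.5% of its control decile, as low. These pairs lie within 3 kb of the H3K27ac pair and are not separate observations of the locus.

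The Cspg4 window showed no single direction. Of its 10 pairs, 4 ranked higher and 6 lower in Olig2cKO tumours. By mark, 3 H3K27ac pairs ranked higher and 3 lower, and 1 H3K4me3 pair ranked higher and 3 lower. The H3K27ac site with 1 control and 2 Olig2cKO peaks was not a pair and is not counted. The share of all pairs ranking higher or lower was not counted, so these are counts of single pairs and not a trait of the window. In the control deciles of these pairs, the median difference was -4.0 to 14.1 points for H3K27ac. For H3K4me3 it was -1.8 to 1.6 points, and most of these medians were negative. The H3K27ac pair farthest below the gene had the highest positive difference, from 42.5% to 73.6% (31.1 points), and 7.59% of pairs were as high. The H3K27ac pair at the upper end of the gene interval went from 54.3% to 73.1% (18.8 points, with 16.9% of pairs as high). The lowest difference was that of the second H3K4me3 peak in the gene, from 50.3% to 27.7% (-22.6 points), and 3.93% of all pairs, or 7.01% of its control decile, were as low. The broad H3K4me3 pair at the lower end of the gene differed by 3.2 points (14.0% and 17.2%).

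**Figure D3:**
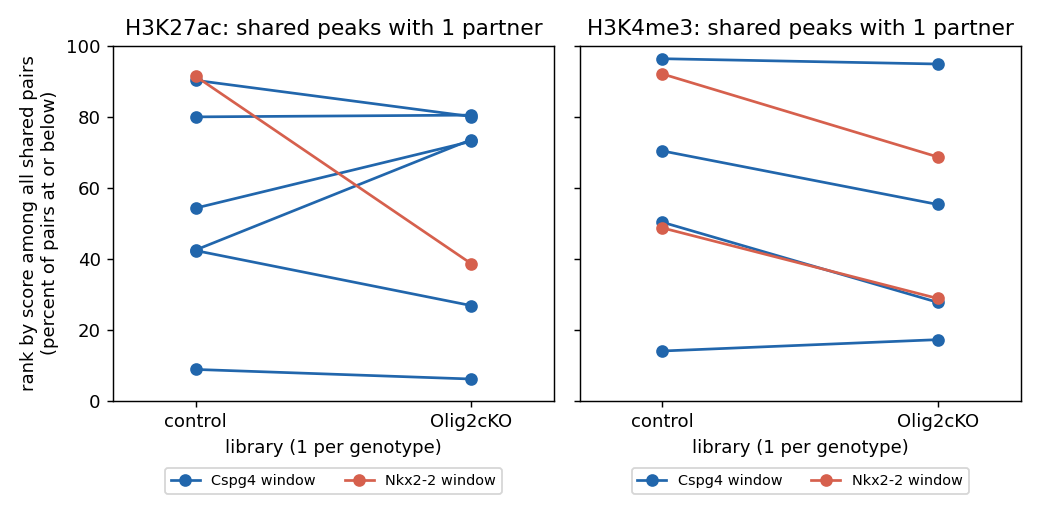
Rank by score (percent of all shared pairs at or below) of each pair with 1 partner on either side, for H3K27ac (left, 7 pairs) and H3K4me3 (right, 6 pairs); each line joins the control and the Olig2cKO library. All 3 Nkx2-2 pairs are lower in Olig2cKO, while 4 of the 10 Cspg4 pairs are higher (3 of 6 for H3K27ac and 1 of 4 for H3K4me3). The share of all pairs that rank higher or lower was not counted.

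Widths of the same pairs were set side by side. Among the 7 H3K27ac pairs of both windows, 2 were wider and 5 narrower in Olig2cKO tumours, with a median difference of -101 bp (Olig2cKO minus control), against 73 bp and 57.0% wider over all 43120 pairs. The Nkx2-2 H3K27ac peak was narrower by 544 bp, all but 51 bp of it at its lower edge, and 11.7% of pairs had a difference as low. Near Cspg4, the H3K27ac pair at the upper end of the gene was 4019 bp wide in control and 3332 bp in Olig2cKO tumours. Among the 6 H3K4me3 pairs, 4 were wider and 2 narrower, with a median of 171 bp, against 150 bp and 76.7% wider over all 35250 pairs. Width can move with the depth of a library, which is unknown, and its part was not tested.

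**Figure D4:**
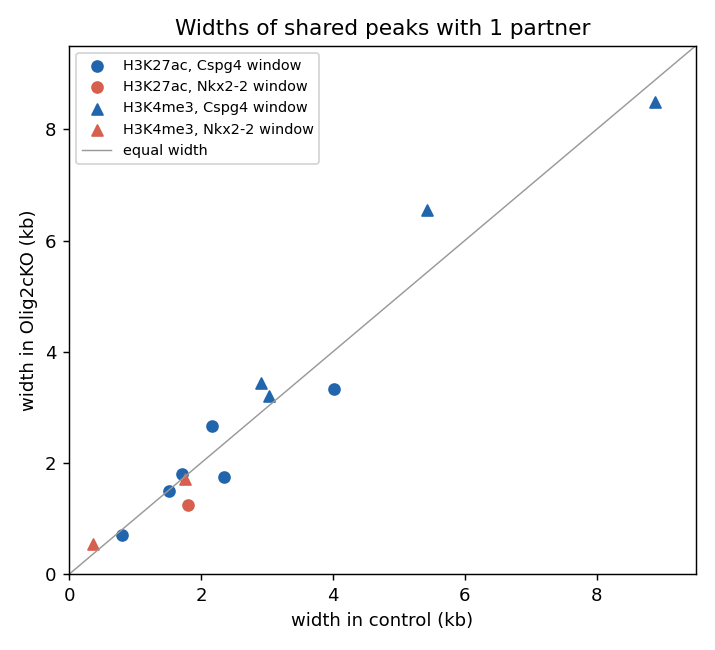
Width in kb of each shared pair in control (horizontal) and Olig2cKO tumours (vertical), by mark and window, with the line of equal width. The broad H3K4me3 pair of the Cspg4 interval is at the upper right (8885 and 8497 bp), and most H3K27ac pairs lie on or under the line.

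Olig2 peaks were dense around Cspg4. The window held 8, where the median over 21972 consecutive windows of 120 kb on chromosomes 1 to 19 and X was 1, and 1.81% of windows held at least as many. Its 8 H3K27ac peaks in each genotype were matched or passed in 7.99% (control) and 12.6% (Olig2cKO) of windows, and its 5 and 6 H3K4me3 peaks in 15.4% and 11.2%. The Nkx2-2 window held 1 H3K27ac peak in each genotype, where the median of 23970 windows of 110 kb was 2, and 63.7% (control) and 68.6% (Olig2cKO) of windows held at least 1. Its 3 Olig2 peaks were matched or passed in 27.3% of windows. Many windows of the genome hold no gene, so these shares describe density and not a comparison with other gene loci.

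Over both windows, Olig2 peaks met H3K27ac and H3K4me3 in proportions near those of the whole list. Of the 11 Olig2 peaks, 7 lay on H3K27ac in control and 7 in Olig2cKO tumours (68.9% and 70.2% of the whole list). H3K4me3 was met by 6 in each genotype (55.6% and 58.1%), all 4 lists by 3 (42.5%) and no list by 2 (17.1%). Seen from the histone marks, 7 of 9 H3K27ac peaks in each genotype and 7 of 8 H3K4me3 peaks in each genotype carried Olig2. Over the whole lists these shares were 49.5% and 42.5% for H3K27ac and 55.7% and 50.3% for H3K4me3 (control and Olig2cKO). H3K27ac peaks met H3K4me3 of the same genotype in 4 of 9 cases in control (50.2% of the whole list) and 5 of 9 in Olig2cKO tumours (49.7%). Olig2 was mapped in control tumours, so its presence at a site in Olig2cKO tumours is not measured.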

How the data were processed

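ChIP-seq peak lists of 5 libraries were used, 1 per group, with groups taken from the source names. CASAVA, Bowtie2 and MACS are named for mm9, per the submitters' processing notes. Those notes give no versions, settings or input library. A position and a score per peak make up every deposited list, the score being assigned by the authors' peak caller within 1 library. The lowest scores were 50.00 to 50.02, where −10 times the base 10 logarithm of p stands at 1e-05, so this scale was inferred from the values. Depth is unknown.

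Members were all peaks overlapping the windows, and the windows, members and lists were chosen with earlier results of these data known. Positions count from 1. Peaks overlapping by at least 1 bp were shared. Every Olig2 and genotype-only peak and the highest peak of each list were named. Alternatives covered score, list length, overlap, merging and window limits. Overlaps (Python 3.11.15, numpy 2.4.6, pandas 2.3.3) were identical to bedtools 2.31.1 in 6 comparisons, and 100% of 23717 simulated peaks received the right status. The simulated peaks were well separated, with partners shifted by less than their width, so this checks the code and not close or split peaks. No replicate test could be made. Peak sequences and gene models on mm9 were not used here. Promoters were matched by symbol. The full genotype and the promoter motifs of a wider precursor gene list are not reported here. Figures used matplotlib 3.10.9.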

Additional observations from a re-analysis of the deposited data

How the results depend on the processing

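Of 142 values recomputed under the alternatives, 108 stayed within 1.5 times of the reported value and 34 moved further. Some of the 108 could not move. Cutting the lists of a mark to equal length left the Olig2 list and the shorter control lists whole, so their peak counts were fixed. Counts and covered lengths cannot reverse, so a reversal was possible for the rank differences alone, and 0 of those reversed. No paired analysis was possible because each group had 1 library, and for the same reason no replicate could be left out. Counts of a few peaks move by more than 1.5 times when 1 or 2 peaks enter or leave. With the upper 50% of each list by score, the Cspg4 window held 5 control H3K27ac peaks, 3 control and 2 Olig2cKO H3K4me3 peaks (11372 and 9767 bp covered), so the broad H3K4me3 peaks of the gene were left out. The Nkx2-2 window then held 1 Olig2cKO H3K4me3 peak, with 2135 bp covered by control H3K4me3. Genotype-only peaks were 0 for control H3K27ac and 0 for Olig2cKO H3K4me3, while control-only H3K4me3 peaks were again 2, though neither of those reported above, and 3 Olig2 peaks lay on Olig2cKO H3K4me3. With the upper 50% of a list set against the whole other list, control-only H3K27ac, control-only H3K4me3 and Olig2cKO-only H3K4me3 were 0 each, so every genotype-only H3K4me3 peak of both windows is in the lower 50% of its list. With the lists of a mark at equal length, control-only H3K27ac peaks were 2. Merging peaks within 1 kb left 1 Olig2cKO H3K4me3 peak around Nkx2-2. Widening the windows by 50 kb gave 14 Olig2cKO H3K27ac and 8 control H3K4me3 peaks around Cspg4, and 2 control H3K27ac, 2 Olig2cKO H3K27ac (2260 bp) and 4 Olig2cKO H3K4me3 peaks (3479 bp) around Nkx2-2. Genotype-only H3K27ac peaks were then 2 in control and 3 in Olig2cKO tumours. Narrowing to 20 kb on each side of the gene interval left 5 Olig2, 4 control H3K27ac, 4 Olig2cKO H3K27ac, 3 control H3K4me3 and 3 Olig2cKO H3K4me3 peaks around Cspg4, with 0 control-only H3K27ac and 1 Olig2cKO-only H3K4me3 peak, and 4 Olig2 peaks on H3K27ac in each genotype. The rank difference of the Nkx2-2 H3K27ac pair was -52.8 to -79.0 points and that of the main H3K4me3 pair -23.4 to -46.4 points over 4 alternatives added after seeing the data, both lowest with the upper 50% of each list. There, the Olig2cKO H3K27ac score of 188.1 stood just above its list median of 167.9 and so near the bottom of the kept list. The value of -79.0 therefore partly reflects the cut and is not a larger difference. What depth limits cannot be measured, since the number of reads is unknown.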
